A study of Mus musculus with 2 samples.

Results

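Macrophages of obese visceral fat were compared between hashtags that differ in Clec4e, the gene of the receptor Mincle. The cells belong to a single pool from the stromal vascular fraction of epididymal white adipose tissue, that is, the non-adipocyte cells released by digestion. The pool came from male mice kept on a high-fat diet for 15 weeks, some wild-type and some Mincle-deficient, all of C57BL/6J background. Each suspension had been tagged with a hashtag antibody before pooling, so that a cell can be traced to its suspension, and 20000 cells were loaded on a BD Rhapsody microwell device and amplified by TAS-Seq. The genotype behind each hashtag, the number of mice it stands for and how the deficient line was made are not given in the sources used here. The hashtags are therefore called by their Clec4e level only: A0309 and A0310 form the Clec4e-high side, and A0311 and A0312 the Clec4e-low side.

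A cell was taken as a macrophage when Cd68, C1qa and C1qb together held at least 20 counts per 10000, Dcn and Lum together held under 10 per 10000, and fewer than 2 of the endothelial genes Cdh5, Kdr and Cldn5 were counted. Of 15741 cells in the table, 15374 carried a hashtag, and 7866 of these passed the gate. They were 1364 of 3288 cells of A0309 (41.5%), 1677 of 3537 of A0310 (47.4%), 2128 of 3893 of A0311 (54.7%) and 2697 of 4656 of A0312 (57.9%). The macrophage share was lower in both high-side hashtags than in both low-side ones, and how many cells of each suspension entered the pool was not used here. The gated cells expressed macrophage genes outside the gate, with a summed level of 9 such markers between 8669 and 9713 CPM, counts scaled to a total that is the same for every sum, in the 4 hashtags. At the edge of the gate, the 139 cells just inside (20 to 22 per 10000) held 411 CPM of the macrophage gene Adgre1, and the 133 cells just outside (18 to 20) held 385 CPM. Lyz2 stood at 4656 CPM inside and 4487 CPM outside, and Csf1r at 472 CPM inside and 505 CPM outside. Cells just outside the gate were thus close to those just inside in these genes.

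Counts were summed over the gated cells of each hashtag, which gave 66825925, 83106581, 98773671 and 126023663 counts in A0309, A0310, A0311 and A0312, and every level below is CPM of such a sum, with the hashtags always in this order. Median counts per cell were 41773, 41804, 39377.5 and 38725. The A0309 and A0310 sums were less alike than the A0311 and A0312 sums: 270 of 12257 genes tested differed by at least 1.5-fold between the former pair, against 44 between the latter. How many mice a sum stands for is unknown. A p-value here therefore sets the gap between the sides against the spread between the 2 sums of a side. That spread is estimated for each gene partly from the other genes tested. Such a p-value says nothing of genotype, and an exact permutation of 2 against 2 sums cannot give a p below 0.333.

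Mincle is a C-type lectin on the surface of macrophages and other myeloid cells. It binds glycolipids of mycobacteria and other microbes and a nuclear protein released from dying cells, and it signals through the adaptor Fcer1g to the kinase Syk and the scaffold Card9. Its gene lies in a cluster of related lectin genes on chromosome 6, and it is induced strongly by inflammatory stimuli. In obese fat, macrophages gather around dying adipocytes in crown-like structures, and Mincle has been studied there as a link to fibrosis.

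Clec4e (GRCm38, chromosome 6, 123281789 to 123289870, minus strand) is shown first by its sequence, since it defines the sides. The 250 bases before the start site in RefSeq (GRCm38.p6) are given for Clec4e and for Apobec1, the gene nearest to it among the abundant genes that passed the test described further on. The capitals mark TATAAA and GAGGAA, the latter a core that PU.1-type factors recognise, on either strand (TTTATA and TTCCTC where the match is on the other strand).
Clec4e, chr6:123289872-123290121, minus strand: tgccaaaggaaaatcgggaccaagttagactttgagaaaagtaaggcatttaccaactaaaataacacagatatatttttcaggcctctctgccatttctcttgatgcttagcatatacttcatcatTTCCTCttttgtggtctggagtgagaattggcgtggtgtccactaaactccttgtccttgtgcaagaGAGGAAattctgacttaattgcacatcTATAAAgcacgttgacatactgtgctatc
Apobec1, chr6:122602445-122602694, minus strand: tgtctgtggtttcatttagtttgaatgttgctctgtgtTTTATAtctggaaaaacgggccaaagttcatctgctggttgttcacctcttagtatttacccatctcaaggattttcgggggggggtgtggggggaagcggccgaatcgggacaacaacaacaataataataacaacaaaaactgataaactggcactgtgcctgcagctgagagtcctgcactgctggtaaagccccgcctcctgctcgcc
In Clec4e, TATAAA begins 29 bases before the start and GAGGAA 56 bases before it, with another GAGGAA on the other strand 123 bases before it. In Apobec1, TATAAA is on the other strand, 212 bases before the start. Of 27025 mouse promoters of this length, 12.97% hold TATAAA and 23.1% hold GAGGAA on either strand, and these matches describe the letters only.

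The hashtags were chosen on Clec4e, so its values are a description and carry no test. Its level was 10.9 CPM in A0309 (95% exact Poisson interval 10.1 to 11.7, 729 counts), 16.0 in A0310 (15.1 to 16.9, 1328 counts), 0.769 in A0311 (0.606 to 0.963, 76 counts) and 0.714 in A0312 (0.574 to 0.878, 90 counts). The log2 ratio of the sides was 4.18. A Clec4e count was found in 9.90% of gated macrophages of A0309 (exact binomial interval 8.36 to 11.6), 12.2% of A0310 (10.6 to 13.8), 1.22% of A0311 (0.800 to 1.79) and 1.26% of A0312 (0.875 to 1.76). Most gated macrophages thus had no Clec4e count even on the high side, at a median of about 41773 counts per cell. Intervals cover counting error only.

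Thinned to 15000 counts a cell, with 129, 176, 183 and 256 shallower cells left out, 6.72%, 8.73%, 0.720% and 0.574% of the macrophages had a Clec4e count. Fibroblast-gated cells, which should lack the gene, had one in 1.21%, 1.39%, 0.837% and 0.248% of cells unthinned, at medians of 34947 to 37160.5 counts. On the low side the fibroblast shares had exact binomial intervals of 0.337 to 1.72 in A0311 and 0.0301 to 0.895 in A0312. The low-side macrophage shares were higher than these fibroblast shares in both hashtags, and so were the levels, at 0.769 against 0.236 CPM in A0311 and 0.714 against 0.0668 CPM in A0312. Thinned, the fibroblast shares were 0.380% in A0311 and 0.135% in A0312. The difference between the gates on the low side was not tested. The counts were concentrated in few cells: the 10 cells with most held 35.4% and 30.7% of all Clec4e counts in A0309 and A0310, and 76.3% and 66.7% in A0311 and A0312. Cells with 10 or more Clec4e counts numbered 20, 38, 2 and 1.

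**Figure D1:**
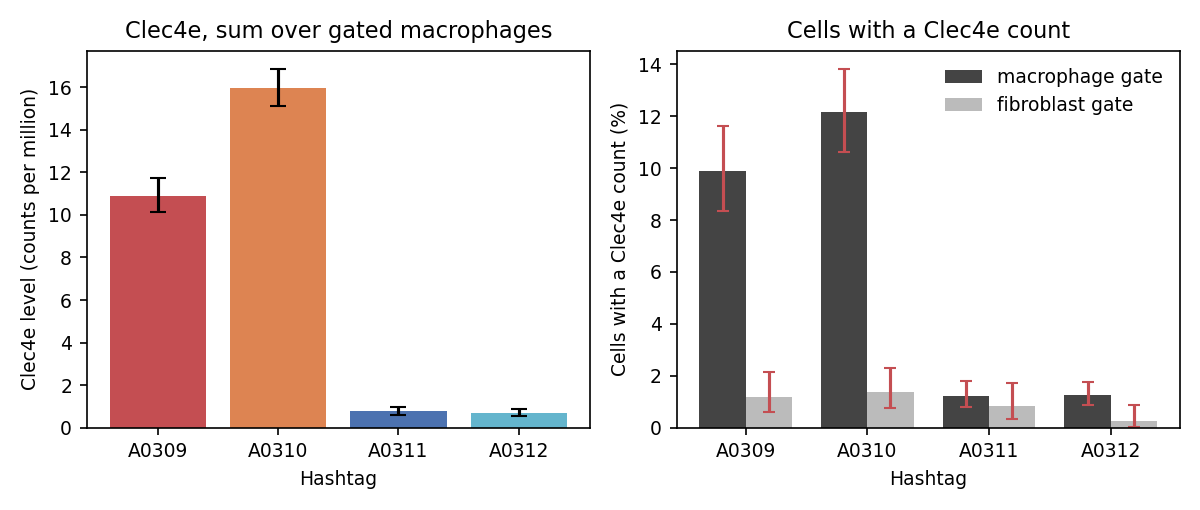
Clec4e in gated macrophages of the 4 hashtags. Left, level in CPM with 95% exact Poisson intervals; right, percentage of cells with a Clec4e count in the macrophage gate and in the fibroblast gate, with 95% exact binomial intervals. A0309 and A0310 stand at 10.9 and 16.0 CPM, A0311 and A0312 below 1 CPM.

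Within the gate, Clec4e was not tied to a single kind of marked cell. Cells with at least 2 cycling genes counted held 10.8, 22.1, 0.405 and 1.19 CPM. Cells with at least 2 of the resident-type genes Lyve1, Folr2, Cd163 and Cbr2 held 11.2, 18.6, 1.75 and 0.397 CPM. Cells with at least 2 monocyte or dendritic genes held 12.4, 35.0, 0.274 and 6.77 CPM, the last from 35 counts in 87 cells. In each of these classes, and in the cells marked by none of them (11.0, 11.0, 0.555 and 0.363 CPM), both high-side hashtags lay above both low-side ones. A cell can belong to more than 1 class. The hashtags were chosen on Clec4e, so these levels too are a description.

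Apart from Clec4e, 19 of 12257 genes tested passed at an adjusted p under 0.05 (edgeR quasi-likelihood test with Benjamini-Hochberg adjustment), 0.155% of the genes tested. Of these, 10 were higher on the high side (0.0816%) and 9 on the low side (0.0734%). At an unadjusted p under 0.05 there were 799. The count rested on the spread of the high side: without A0309 it was 178 and without A0310 it was 488, fits in which the lone high-side sum is assumed to vary like the low-side sums. DESeq2 called 104, and edgeR without a filter on low counts 43. All 19 genes kept their direction in each of 14 alternatives, and 11 were called in all 14. Of the 19, 10 fall outside the rule by which genes are named, which leaves out predicted genes, and were added after their values were seen. A gene was tested if at least 2 sums reached 2 CPM, and 76 of the genes tested did so on 1 side only. Among these are 5 of the 19, Gm39459, Klra3, Gm32913, Gm21860 and Klra1, which were tested only because of the side where they are high. In the fit without this filter all 5 were called too, with adjusted p between 3.80e-07 and 0.00115.

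The abundant gene with the clearest gap was Apobec1, the cytidine deaminase that edits apolipoprotein B mRNA. Its level was 294, 283, 704 and 679 CPM, a log2 ratio of -1.24 ± 0.06 (SE, 2 sums a side, adjusted p = 0.00106). The high-side sums lay close together, and so did the low-side sums, with a wide gap between them. Thinned to 15000 counts, 87.8%, 89.6%, 98.3% and 98.6% of the macrophages had an Apobec1 count, so the gene was detected in nearly all cells on both sides. The gap was present in every marked class: 251 to 260 against 630 to 652 CPM in cycling-marked cells, 274 and 283 against 680 and 689 in resident-marked cells, and 248 and 272 against 605 and 614 in monocyte- or dendritic-marked cells.

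Mgst1, a membrane-bound glutathione transferase, was the other abundant gene that was higher on the low side. It stood at 94.1, 113, 205 and 214 CPM, a log2 ratio of -0.99 ± 0.09 (adjusted p = 0.0258), with no overlap between the sides. Without A0312 its call was lost, with an adjusted p of 0.0506. Thinned, 50.8%, 52.7%, 72.4% and 76.1% of the macrophages had an Mgst1 count. Its range over the marked classes was 59.5 to 123 CPM in the high-side hashtags and 167 to 226 in the low-side ones.

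Dppa3, known from germ cells and the early embryo, was higher on the high side at 16.5, 11.6, 3.44 and 3.54 CPM (log2 ratio 2.03 ± 0.18, adjusted p = 0.0161). Without A0311 or without A0312 it was not called, with an adjusted p of at most 0.109. It was seen in few cells, 11.3%, 8.26%, 2.67% and 2.34% after thinning, and in fibroblast-gated cells it was between 0.114 and 0.724 CPM. Dppa3 and Apobec1 are neighbours of Clec4e and lay on opposite sides.

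The natural killer receptor genes Klra3, Klra1 and Klrb1a also differed, at low levels. Klra3 stood at 3.85, 2.90, 0.0810 and 0.103 CPM (257, 241, 8 and 13 counts), a log2 ratio of 5.17 ± 0.28 (adjusted p = 0.00212). Klra1 ran the other way, at 0.419, 0.385, 2.75 and 2.15 CPM (28, 32, 272 and 271 counts, log2 ratio -2.58 ± 0.23, adjusted p = 0.0121). Klra genes are near-identical copies of each other, and counting can move reads between them, so which copy a count belongs to is uncertain. Klrb1a was higher on the low side as well, at 4.74, 3.79, 10.5 and 12.3 CPM (log2 ratio -1.40 ± 0.15, adjusted p = 0.0282), and was not called without A0312 or in the stricter gate. Klra3 reached the 2 CPM of the filter on the high side only and Klra1 on the low side only. The summed level of 12 T and NK cell markers was 319, 261, 291 and 294 CPM, of which the cytokine receptor gene Il7r made up 308.5, 253.5, 284.5 and 279.7 CPM. The other 11 markers were each at 2.96 CPM or less. Among them only the natural killer receptor gene Klrb1c was higher in both high-side sums, at 0.928, 0.710, 0.233 and 0.183 CPM, too low to test. Of the same list, Nkg7 (1.80, 1.11, 1.08 and 2.14 CPM), Gzma (0.718, 0.180, 0.213 and 0.325 CPM) and Gzmb (0.554, 0.0120, 0.172 and 0.413 CPM) overlapped between the sides. The T cell genes Cd3d and Cd4 were lower in both high-side sums, at 1.65, 1.55, 1.76 and 2.57 CPM and at 0.584, 0.614, 0.688 and 1.24 CPM. Without the cells marked by lymphocyte or mural genes, described further on, the 3 receptor genes were still called.

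Apold1, an apolipoprotein L domain gene studied in vessels, was higher on the low side at 3.53, 3.22, 11.4 and 14.6 CPM (log2 ratio -1.92 ± 0.15, adjusted p = 0.0107). The summed level of 10 endothelial markers was 32.3, 29.4, 31.4 and 34.2 CPM and overlapped. The non-coding 2310001H17Rik stood at 12.1, 11.4, 19.8 and 20.9 CPM (log2 ratio -0.78 ± 0.08, adjusted p = 0.0282). It was not called without A0311 or without A0312.

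**Figure D2:**
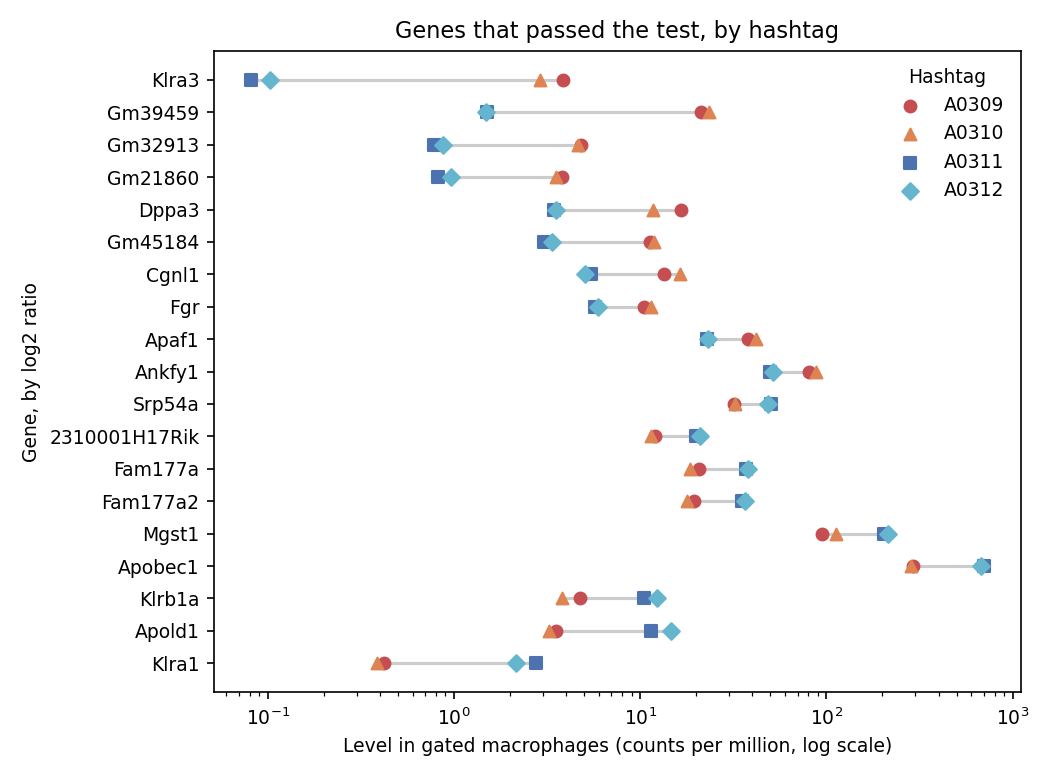
Level in CPM (log axis) of the 19 genes that passed the test, by hashtag, ordered by log2 ratio. In each row the A0309 and A0310 points lie together and apart from the A0311 and A0312 points; Apobec1 is the most abundant, at 283 to 704 CPM.

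The 8 genes given in detail so far were grouped by position, which the choice of hashtags did not use. All lie on chromosome 6 within 15 Mb of Clec4e, a window chosen after the positions were seen. Their shared position thus follows from the grouping. The other 11 called genes lie on other chromosomes and are described further on. Counted from the left end of Clec4e, with negative values toward lower coordinates, Apobec1 (122577792 to 122602444) lies at -0.70 Mb and Dppa3 (122626410 to 122630272) at -0.66 Mb. Klrb1a lies at 5.33 Mb, 2310001H17Rik at 5.93, Klra3 at 7.04, Klra1 at 7.08, Apold1 (134981718 to 134986836) at 11.70 and Mgst1 (138140316 to 138156755) at 14.86 Mb. Of 200 tested genes in the window 8 were called (4.0%), of 391 on the rest of chromosome 6 none, and of 11604 on the other chromosomes 11 (0.0948%). At an unadjusted p under 0.05 the shares were 27.0%, 7.67% and 6.14%. Within the window 6 of the 8 called genes were higher on the low side and 2 on the high side. Without the genes that passed the filter on 1 side only, 6 of 193 were called there.

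The called genes were not spread evenly over the window. From -15 to -5 Mb none of 56 tested genes was called and 11 had an unadjusted p under 0.05, and from -5 to 0 Mb 2 of 40 were called and 13 (32.5%) had one. From 0 to 5 Mb none of 51 was called and 2 had an unadjusted p under 0.05, while from 5 to 15 Mb 6 of 53 were called and 28 (52.8%) had one. From 15 to 30 Mb none of 44 was called and 4 had an unadjusted p under 0.05. The count of called genes in the window was 25 without A0309, 34 without A0310 and 4 without A0312, 24 with DESeq2 and 15 without the filter.

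**Figure D3:**
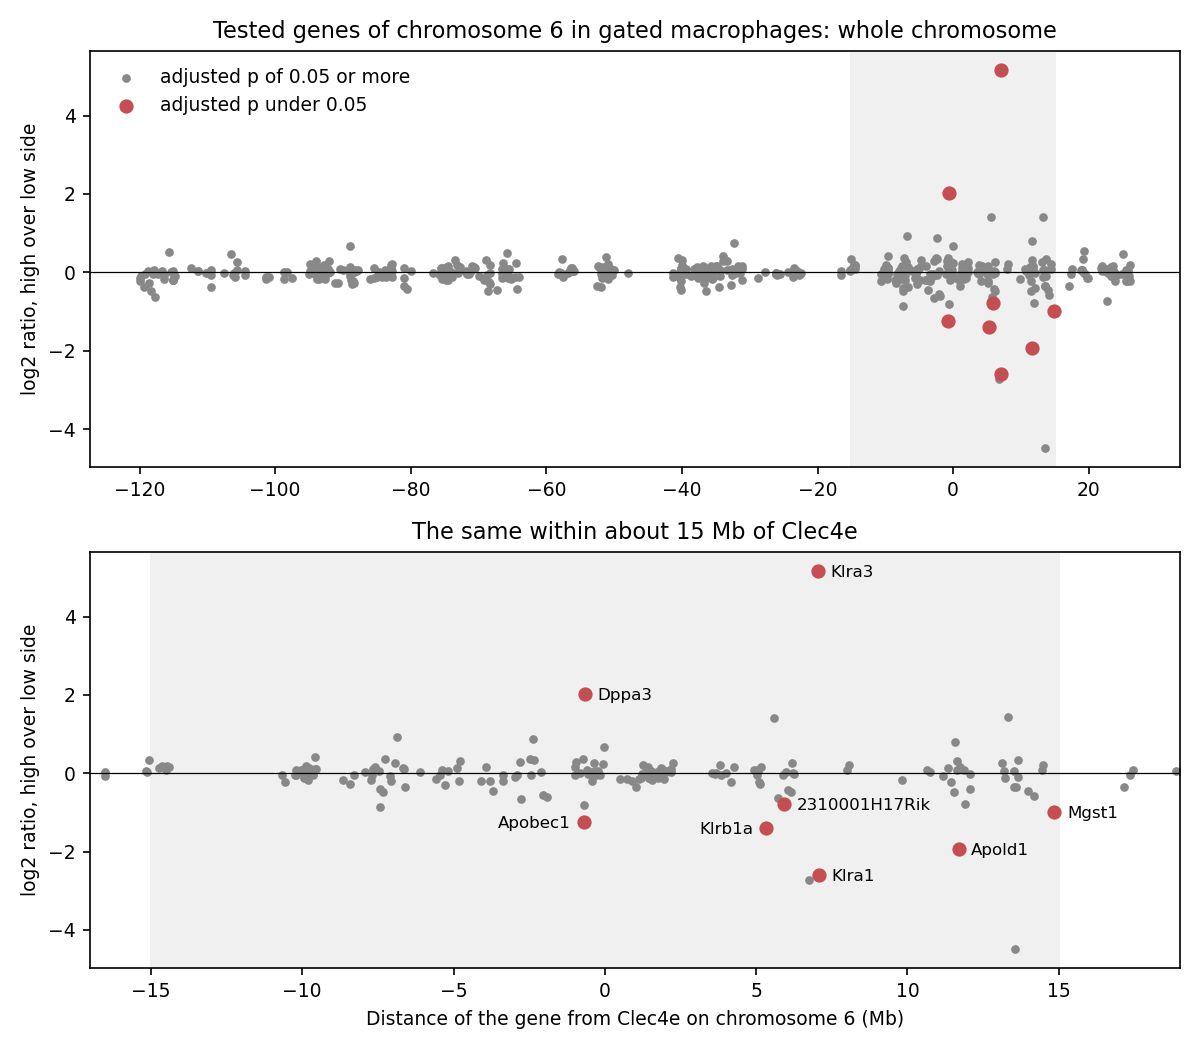
Log2 ratio of the sides for the tested genes of chromosome 6 against their distance from Clec4e in Mb, for the whole chromosome (top) and near Clec4e (bottom, grey band 15 Mb to either side). The 8 red points, from -0.70 to 14.86 Mb, are the genes with an adjusted p under 0.05; all of them are inside the band.

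A rule of size, with no variance estimate, was also applied. It asked that every high-side level plus 1 CPM be at least 1.5 times every low-side level plus 1 CPM, or the reverse. This was met by 31 genes (0.253% of those tested). Of these, 14 were among the 200 tested genes of the window and 17 among the 11995 placed outside it. Without the genes that passed the filter on 1 side only, 10 of 193 in the window met it. Of the window genes past this rule and not called, Smco3 had the widest gap, at 0.763, 0.180, 9.55 and 10.9 CPM (log2 ratio -4.48 ± 0.58, adjusted p = 0.313). It was seen in 1.21%, 0.200%, 8.28% and 9.22% of the thinned macrophages. Gdf3, a TGF-beta family growth factor next to Apobec1, stood at 48.7, 63.1, 105 and 95.5 CPM (log2 ratio -0.82, adjusted p = 0.300). Alox5, which makes leukotrienes, stood at 7.95, 6.58, 3.88 and 3.81 CPM (0.94, adjusted p = 0.106), and the pro-apoptotic Bid at 12.4, 11.4, 7.28 and 5.91 CPM (0.88, adjusted p = 0.106). The DNA glycosylase gene Mbd4 stood at 8.47, 10.0, 16.7 and 17.2 CPM (-0.85, adjusted p = 0.0688), and Klra4 at 0.614, 0.144, 2.62 and 2.25 CPM. By the rule that picked them these 6 could not overlap between the sides. DESeq2 called each of the 6, but on the same sums that picked them, so this is not separate support. Smco3 and Klra4 passed the filter on the low side only.

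Outside the window 11 genes were called. Cgnl1, a junction protein, stood at 13.4, 16.4, 5.45 and 5.07 CPM (chromosome 9, log2 ratio 1.52 ± 0.13, adjusted p = 0.0113). Ankfy1, an endosomal Rab5 effector, stood at 80.8, 88.4, 50.1 and 51.5 CPM (chromosome 11, 0.76 ± 0.07, adjusted p = 0.0121), and Apaf1, the apoptosome scaffold, at 37.9, 41.7, 22.9 and 23.2 CPM (chromosome 10, 0.81 ± 0.07, adjusted p = 0.0140). Fgr, a Src-family kinase of myeloid cells, stood at 10.5, 11.4, 5.75 and 5.91 CPM (chromosome 4, 0.93 ± 0.11, adjusted p = 0.0386). All 4 were higher on the high side. Ankfy1 and Apaf1 were not called without A0311, and Fgr was not called without A0311, without A0312, in the stricter gate or on mean levels over cells.

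On the low side, 3 called genes are neighbours on chromosome 12 within 137 kb. Srp54a, a subunit of the signal recognition particle, stood at 31.96, 32.5, 50.6 and 48.3 CPM (log2 ratio -0.60 ± 0.06, adjusted p = 0.0233) and was not called without A0311 or without A0312. Fam177a stood at 20.8, 18.5, 37.0 and 37.9 CPM (-0.91 ± 0.08, adjusted p = 0.0118) and Fam177a2 at 19.5, 17.9, 35.3 and 36.4 CPM (-0.92 ± 0.07, adjusted p = 0.0107). The latter pair are close copies, and the split of counts between them is uncertain. The 4 remaining called genes are predicted genes that were higher on the high side. Gm39459 had the smallest p of all, at 21.2, 23.3, 1.51 and 1.49 CPM (chromosome 9, 3.91 ± 0.11, adjusted p = 7.37e-05). Its low-side levels are under the 2 CPM of the filter, as are those of Gm32913 and Gm21860. Gm45184 stood at 11.3, 11.9, 3.04 and 3.36 CPM, Gm32913 at 4.79, 4.66, 0.780 and 0.873 CPM, and Gm21860 of the Y chromosome, part of a family of near-identical copies, at 3.82, 3.55, 0.820 and 0.960 CPM.

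Of 11 genes of the Mincle cluster and related lectins 10 were tested and none was called (median log2 ratio 0.23, or 0.10 without A0309 and 0.06 on mean levels over cells, against 0.00 over all genes tested), while Clec4b2 was too low to test. Clec4d, whose product pairs with Mincle, stood at 59.7, 145, 58.5 and 71.5 CPM, high in A0310 alone. Clec4n, the gene of Dectin-2, stood at 1.74, 5.01, 3.02 and 2.81 CPM, and Clec4b1 at 159, 126, 140 and 136 CPM. In both the high side enclosed the low side. The sides did not overlap in Clec4a1 (81.3, 83.9, 66.9 and 72.4 CPM, adjusted p = 0.438), in the Dectin-1 gene Clec7a (453, 490, 388 and 406 CPM, adjusted p = 0.468) and, the other way round, in Clec12a, an inhibitory uric acid crystal receptor (536, 602, 778 and 773 CPM, adjusted p = 0.184). A lack of overlap was common: 18.2% of all genes tested had it with the high side above and 19.2% with the low side above, judged on CPM scaled by TMM. On the unscaled CPM printed here these were 1588 and 3000 genes, against 2227 and 2354 with the scaling. Clec12a lies at 6.06 Mb and Clec4a1 at -0.36 Mb from Clec4e, both within the window, and the position of Clec7a is not stated here. From 5 to 15 Mb 52.8% of the tested genes had an unadjusted p under 0.05, and from -5 to 0 Mb 32.5%. Clec4a2 and Clec4a3 stood at 369 to 402 and 117 to 131 CPM. Of the 23 tested genes within 1 Mb of Clec4e, Clec4a4, Foxj2, M6pr, Necap1, Phc1 and Slc2a3 had log2 ratios between -0.20 and 0.28, and 7 predicted or vomeronasal genes are not described.

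Of 12 tested genes of Mincle's signalling chain none was called (median 0.05). The adaptor Fcer1g stood at 1122, 1185, 1202 and 1194 CPM (log2 ratio -0.03 ± 0.06), Syk at 191, 177, 176 and 187 CPM (0.04 ± 0.06) and Card9 at 11.2, 11.1, 10.8 and 10.9 CPM (0.06 ± 0.09). The sides overlapped in Syk. In Fcer1g the low side lay above the high side in the CPM given here and overlapped with it after TMM scaling. The lowest p in this list was that of Prkcd, a kinase of the same chain, at 146, 143, 131 and 134 CPM (adjusted p = 0.708).

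The ligands through which macrophages could act on fibroblasts did not pass the test. Osm, the gene of oncostatin M, stood at 12.1, 10.9, 10.5 and 11.7 CPM (log2 ratio 0.07 ± 0.11, adjusted p = 0.920). Tgfb1 stood at 224, 225, 227 and 230 CPM (-0.01 ± 0.05, adjusted p = 0.987). Spp1, the gene of osteopontin, stood at 156, 255, 190 and 164 CPM (0.24 ± 0.30, adjusted p = 0.916). None of 11 tested genes of the oncostatin M and IL-6 family was called, though the cytokine gene Clcf1 did not overlap (2.98, 3.10, 1.81 and 1.48 CPM, log2 ratio 0.91, adjusted p = 0.236, past the filter on the high side only). None of 13 fibrogenic growth factor genes was called either, Igf1 at 456 to 593 CPM and Tgfbi at 173 to 245 CPM among them.

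In all, 272 genes of 21 study lists were tested and edgeR called none of them. At an unadjusted p under 0.05 there were 27, against 799 of all 12257 genes tested. DESeq2 called 4, among them Clcf1, Clec12a and Clec7a, against 104 of all genes tested. More listed genes passed when A0309 or A0310 was left out, and they did so in a larger share than all genes tested. Those fits rest on a lone high-side sum. Among 10 tested inflammatory cytokine genes, Tnf stood at 115, 136, 133 and 135 CPM and Il1b at 21.4, 36.4, 15.5 and 20.4 CPM (log2 ratio 0.71, adjusted p = 0.805). Nfkbia, an NF-kappaB target and inhibitor, stood at 670 to 804 CPM.

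None of the 20 genes of the lipid-associated state, the programme of macrophages that take up lipid in obese fat, was called. Their median log2 ratio was 0.08, and they summed to 44510, 45537, 44653 and 44829 CPM. Trem2, the lipid receptor of that state, stood at 1334, 1434, 1494 and 1492 CPM, Gpnmb at 3083 to 3308 and Lpl at 9190 to 10298 CPM. Of 13 tested resident-state genes none was called (median 0.05). Among these, Cd163 was lower in both high-side sums (14.4, 12.2, 16.4 and 17.8 CPM, adjusted p = 0.639), while Folr2 (367, 641, 617 and 657 CPM) and Lyve1 (22.9, 7.003, 14.2 and 3.17 CPM) differed as much within the high side as between sides. Of the 18 cell cycle genes none was called (median 0.02), and cells with cycling genes made up 25.7%, 23.6%, 25.4% and 23.1% of the gated cells. Ctsb among the lysosomal genes, Npc2 among the sterol genes, Csf1r among the growth factor receptors, Fos among the immediate early genes and C3ar1 among the complement receptors were the most abundant or near the most abundant of their lists, and their log2 ratios lay between -0.05 and 0.02.

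Interferon-induced genes leaned to the low side without passing the test. Of 16 tested, 9 had both high-side levels below both low-side ones and none the reverse (10 and none unscaled), against 19.2% and 18.2% of all genes (3000 and 1588 of 12257 unscaled), with a median log2 ratio of -0.26 and a smallest adjusted p of 0.423. Oas1a, an antiviral RNA sensor, stood at 25.6, 30.1, 38.1 and 35.8 CPM (log2 ratio -0.38 ± 0.09). Irf7, a master regulator of type I interferon, stood at 8.38, 13.1, 18.8 and 15.8 CPM (-0.66 ± 0.24, adjusted p = 0.750), and Oasl2 at 14.9, 23.4, 28.3 and 30.6 CPM. Ifit3 stood at 2.45, 3.48, 6.64 and 4.04 CPM. The median was -0.17 without A0309, -0.48 without A0310, -0.45 without cycling-marked cells and -0.42 on mean levels over cells. The summed level of the list was 360, 410, 456 and 461 CPM, lowest in A0309. Ifitm3, its most abundant member, differed little (171, 169, 184 and 185 CPM).

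Glycolysis and hypoxia genes leaned the other way. Of 15 tested, 11 had both high-side levels above both low-side ones and 2 the reverse (9 and 2 unscaled), against 18.2% and 19.2% of all genes (1588 and 3000 of 12257 unscaled), with a median log2 ratio of 0.18 and a smallest adjusted p of 0.583. Pgk1 stood at 219, 249.1, 202 and 200.02 CPM (log2 ratio 0.24 ± 0.07), Eno1 at 350, 331, 313.8 and 291 CPM (0.19 ± 0.06), Pdk1, which limits entry of pyruvate into mitochondria, at 29.7, 32.3, 26.3 and 26.1 CPM, and Gapdh at 1096, 1098, 1066 and 1005 CPM. Ero1l, an oxidase of the endoplasmic reticulum, ran against the list at 22.7, 23.7, 28.5 and 27.4 CPM. The median was 0.08 without A0310.

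**Figure D4:**
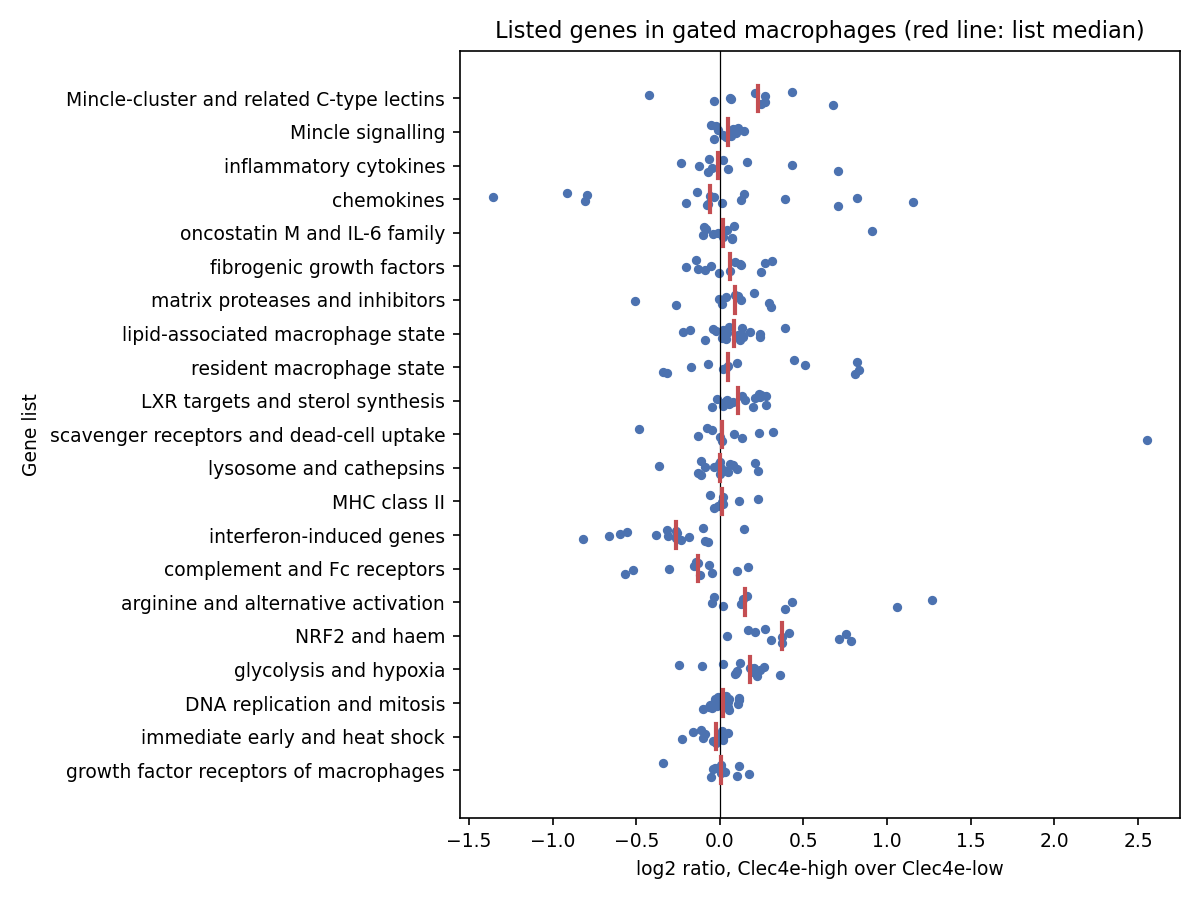
Log2 ratio of the sides (horizontal axis) for each tested gene of the 21 study lists (rows), with the list median as a red line. Medians run from -0.26 for the interferon-induced genes to 0.37 for the NRF2 and haem genes, and no point passed the test.

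The NRF2 and haem genes, which answer to oxidative stress, had the highest median of the lists (0.37 over 11 tested), and several were highest in A0310. Hmox1, which breaks down haem, stood at 209, 319, 210 and 204 CPM, Srxn1 at 60.6, 114, 50.5 and 57.7 CPM and Gsr at 15.2, 31.8, 14.1 and 14.2 CPM. Their median was 0.67 without A0309, 0.03 without A0310 and 0.24 with the gate at 40 per 10000. A0309 lay within a few CPM of the low side in Hmox1 and Gsr. Ftl1, the ferritin light chain and the most abundant of them, stood at 16135, 17079, 14782 and 15196 CPM (log2 ratio 0.17, adjusted p = 0.719). Cd5l, a scavenger protein, was also high in A0310 alone, at 2.84, 23.9, 1.91 and 2.71 CPM.

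Other genes set A0309 apart from the remaining 3 hashtags. Retnla, a gene of alternative activation, stood at 1301, 125, 363 and 328 CPM, and in the resident-marked cells at 3004, 230, 609 and 564 CPM. Ear2 stood at 155, 40.03, 45.6 and 36.2 CPM, and the chemokine genes Ccl2 and Ccl7 at 189, 101, 94.1 and 85.4 CPM and at 75.3, 30.1, 25.1 and 22.7 CPM. The 8 MHC class II genes summed to 14153, 9773, 11558 and 12663 CPM, highest in A0309 and lowest in A0310, with Cd74 at 6149, 4468, 5106 and 5530 CPM. The neutrophil chemoattractant gene Cxcl1 ran from 35.2 in A0309 through 146 in A0310 to 225 and 248 CPM on the low side (log2 ratio -1.36 ± 0.86, adjusted p = 0.850), a gap as wide within the high side as between sides. Cxcl2 stood at 2768 to 3019 CPM, Mfge8, a bridge to dying cells, at 408 to 638 CPM, C1qc at 1672 to 2106, Selenop at 3537 to 4373, Mmp12 at 1668 to 2532, Pcna at 375 to 404 and Jak1 at 186 to 189 CPM.

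Marks of other cells moved with the sides in part. Cells with at least 2 monocyte or dendritic genes made up 5.06% and 3.82% of the gated cells on the high side and 2.87% and 3.23% on the low side. The summed level of 12 monocyte markers was 495, 317, 366 and 361 CPM and overlapped. Of the 9 tested, 3 (F10, Ace and Itgal) were higher in both high-side sums after TMM scaling and none was lower in both. Over all genes tested 18.2% were higher in both and 19.2% lower. Unscaled, 2 of the 9 were higher in both. Itgal stood at 3.397, 3.18, 1.51 and 2.14 CPM (adjusted p = 0.423). Ccr2 (135, 58.1, 62.9 and 58.2 CPM) and Ly6c2 (4.00, 3.61, 2.49 and 4.58 CPM) overlapped. The summed level of 8 mural markers was 28.0, 41.3, 24.5 and 28.3 CPM. Among them Rgs5, a pericyte gene, followed the sides at 12.2, 9.61, 4.11 and 5.59 CPM (log2 ratio 1.18 ± 0.19, adjusted p = 0.179) and was past the rule of size. Without the cells with at least 2 of the lymphocyte or mural genes Cd3e, Cd3g, Cd79a, Ms4a1, Nkg7, Rgs5 and Myh11, the same 19 genes were called. Fibroblast markers summed to 538 to 576 CPM, B cell markers to 89.4 to 106 CPM, dendritic markers to 13.9 to 20.1 CPM, adipocyte and mesothelial markers to 12.5 to 13.4 CPM and neutrophil and mast cell markers to 9.28 to 11.5 CPM. Of 5 erythrocyte markers 1 is in the table, at 0.481 CPM or less. Without the monocyte- and dendritic-marked cells 22 genes were called, and these held all 19.

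The same 4 hashtags were compared in fibroblast-gated cells, a comparison added after the macrophage result was known. There edgeR called none of 13546 genes (0.0%), with 442 at an unadjusted p under 0.05. Some genes called in macrophages leaned the same way in fibroblasts. Log2 ratios there were -0.28 for Srp54a, -0.32 for Fam177a, -0.31 for Fam177a2, -0.76 for Apold1 and 0.85 for Gm21860. Their unadjusted edgeR p lay between 0.00205 and 0.0165. Cgnl1 ran the other way in fibroblasts, at -0.31 (unadjusted p = 0.388). The difference of log2 ratios, macrophage minus fibroblast, was called for 2 of 11537 genes (0.0173%), Mgst1 and Gm45184. Mgst1 was more abundant in fibroblasts than in macrophages, at 300.5, 375, 333 and 343 CPM, with a log2 ratio of 0.00. Apobec1 was low in fibroblasts, at 20.3, 24.5, 24.4 and 33.8 CPM (log2 ratio -0.37), and its difference from the macrophage ratio, -0.88 ± 0.19, was not called (adjusted p = 0.740).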

How the data were processed

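The deposited transcript table holds whole-number counts of 30084 genes per cell, and the column names, per the file headers, carry the hashtag the authors gave each cell; 367 columns named doublet were not used. The build is GRCm38, and Bowtie2 2.4.2 and cutadapt 3.4 are listed without a role, per the submitters' processing notes. Nothing used here states if the counts are of reads or of molecules, or if they respect strand. In 68 genes, among them the gate genes Cd68, C1qa, Dcn and Lum and the named genes C1qc, Cd74, Ctsb, Cxcl2, Ftl1, Gpnmb, Lpl, Mfge8 and Selenop, low counts had been set to 0 before deposit. The deposited hashtag table, also counts, was used only to select cells with at least 10 tags of which 75% or more were their own.

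Sums were made per hashtag over the gated cells and tested with edgeR 4.0.16 (R 4.3.3; quasi-likelihood, robust, TMM) on genes with at least 2 CPM in at least 2 sums, Clec4e left out. Whether levels overlap was judged on TMM-scaled CPM. Alternatives were DESeq2 1.42.0, limma 3.58.1 on mean levels over cells, no TMM, no filter, other gates and cell filters, and each hashtag left out. The procedure was tested on simulated data. Positions come from GENCODE vM21 (GRCm38) for 12029 genes and otherwise from RefSeq (GRCm38.p6), and 12195 of 12257 genes tested were placed.

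Members and lists were chosen with earlier results of these data known. Genes named are Clec4e, Osm, Tgfb1, Fcer1g, Syk, Card9 and Spp1; called genes at a mean of 10 CPM or more other than predicted (Gm or Rik) genes; from each list up to 3 called members and the uncalled one of highest mean CPM; and genes within 1 Mb of Clec4e. Others named were chosen after their values were seen. Sums of a hashtag may share or pool mice, so the spread may be technical. Values of 2 listed genes are not reported here.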

Additional observations from a re-analysis of the deposited data

Results flagged for a closer look

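The log2 ratio of the sides differed between macrophages and fibroblast-gated cells for 2 genes, by a test of the difference itself in edgeR over 11537 genes. For Mgst1 the difference, macrophage minus fibroblast, was -0.99 ± 0.08 (adjusted p = 0.0077), with a ratio of 0.00 in fibroblast-gated cells. For Gm45184 it was 1.78 ± 0.20 (adjusted p = 0.0403), with a fibroblast ratio of 0.09 and fibroblast levels of 3.71 to 4.27 CPM. Both genes are among those called on the macrophage sums, so their separation there is not a further result. What sets the gates apart for these genes was not tested.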

How the results depend on the processing

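Against 19 called genes, 43 passed without the filter and 104 with DESeq2; leaving out 1 hashtag gave 15 to 488. Within 15 Mb of Clec4e the 8 became 15 and 24, and 4 to 34 on leaving out 1 hashtag. Listed genes called were 0, with 4 by DESeq2 and 0 to 36 on leaving out 1 hashtag. The 31 genes apart by size became 17 at a pseudocount of 5 CPM. In the other alternatives these counts stayed within 1.5 times. No gene that was called changed sign. Leaving out 1 hashtag, uncalled genes that changed sign had log2 ratios of -0.27 to 0.015 for C1qc, -0.23 to 0.23 for Cd74, -0.088 to 0.013 for Clec4a2, -0.016 to 0.14 for Clec4a3, -0.14 to 0.091 for Clec4a4, -0.12 to 0.22 for Clec4b1 and -0.11 to 1.18 for Clec4d. The span was -0.73 to 0.81 for Clec4n, -0.14 to 0.033 for Csf1r, -0.021 to 0.025 for Ctsb, -0.078 to 0.0086 for Cxcl2, -0.0043 to 1.94 for Ear2, -0.078 to 0.0081 for Fcer1g, -0.78 to 0.033 for Folr2 and -0.029 to 0.074 for Foxj2. It was -0.035 to 0.060 for Gpnmb, -0.079 to 0.31 for Igf1, -0.051 to 0.12 for Lpl, -0.27 to 2.25 for Lyve1, -0.031 to 0.56 for Mfge8, -0.19 to 0.054 for Nfkbia, -0.020 to 0.055 for Npc2 and -0.0065 to 0.17 for Osm. For the rest it was -1.45 to 1.93 for Retnla, -0.080 to 0.066 for Slc2a3, -0.17 to 0.55 for Spp1, -0.014 to 0.091 for Syk, -0.021 to 0.012 for Tgfb1 and -0.20 to 0.048 for Tnf. With the gate at 40 per 10000, the log2 ratio was 0.026 for Clec4a4, -0.0021 for Npc2, -0.066 for Spp1 and 0.024 for Tnf. Without TMM, the log2 ratio was -0.0026 for Cd74, -0.018 for Ctsb, -0.0073 for Gpnmb and -0.0021 for Npc2. On mean levels over cells, the log2 ratio was -0.053 for Card9, -0.039 for Cd74, -0.023 for Ctsb, -0.021 for Foxj2, -0.0041 for Lpl, -0.0077 for Npc2 and -0.030 for Syk. Without cycling-marked cells, the log2 ratio was -0.024 for Cd74, -0.019 for Foxj2, -0.051 for Osm and -0.0042 for Syk. Without monocyte- and dendritic-marked cells, the log2 ratio was -0.0054 for Cd74. The cause of these changes was not tested. No paired analysis was possible because the labels give the hashtags no replicate numbers. With 2 sums a side, a difference smaller than the spread within the high side was not detectable, and genes under 2 CPM were not tested.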
